A study of Mus musculus with 32 samples.

Results

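The genes described are 10 C-type lectin receptor genes of myeloid cells (Clec4d, Clec4e, Clec4n, Clec7a, Clec4a1, Clec4a2, Clec4a3, Clec5a, Clec10a and Clec12a) in bone marrow-derived macrophages (BMDMs) with and without the nuclear receptor Nur77, encoded by Nr4a1. They were chosen by gene name, with earlier results of these data known. For each gene the transcript with the highest mean count over all libraries was kept, which left 10 members among 25067 genes, and all 10 were among the 11272 genes tested. RNA-seq was available for 8 groups of 4 libraries. Wild-type cells (BMDM-WT) and knockout cells (BMDM-Nur77-KO) were each sampled before and 1, 5 and 18 h after 100 ng/ml lipopolysaccharide (LPS), the bacterial ligand of Toll-like receptor 4. Bone marrow came from C57Bl6/J male mice of 6 to 12 weeks, and was cultured for 7 days with 15% L929-conditioned medium. The knockout is whole-body: mice with loxP-flanked Nr4a1 were crossed to a CMV-Cre line, the Cre was bred out afterwards, and WT littermates served as controls. The sample labels call the knockout genotype cre. The cells were seeded in wells as 4 replicates and the number of mice behind them is not given, so the p-values measure the spread between these libraries, which may be technical.

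C-type lectin receptors are surface proteins that bind sugars and lipids of microbes and of damaged cells. The activating members signal through an immunoreceptor tyrosine-based activation motif, either in a partner adaptor (Fcer1g for Clec4e, Clec4d and Clec4n, Tyrobp for Clec5a) or, in part, in their own tail (Clec7a). This recruits the kinase Syk and the Card9, Bcl10 and Malt1 complex and leads to cytokine production. The inhibitory members Clec4a2 and Clec12a carry an inhibitory motif that recruits phosphatases such as Ptpn6. In macrophages these receptors take part in the recognition of fungi and mycobacteria. Their mRNAs were counted in bulk cultures, in which fewer cells that express a gene and less RNA per cell cannot be told apart.

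Of the 10 genes, 9 lie on mouse chromosome 6 (GRCm38.p6, the build called mm10). Clec4a1, Clec4a3, Clec4a2, Clec4n, Clec4d and Clec4e lie within 368.024 kb, with Clec4d and Clec4e on opposite strands and their 3′ ends 6.521 kb apart. Clec12a and Clec7a lie within 123.003 kb of each other's outer ends, Clec5a lies elsewhere on the chromosome, and Clec10a is on chromosome 11. RefSeq promoters (GRCm38.p6, 250 bases before to 50 after a start site) were matched for 8 of the 10, all but Clec4n and Clec10a. Stretches are printed for Clec4e and Clec4a2, the genes whose LPS response differed between genotypes at 18 h, for Clec7a and Clec5a, which followed each other across the groups, and for Clec12a, which held the most motif matches. For Clec4e, Clec12a, Clec7a and Clec5a they are the 250 bases before the start site, and for Clec4a2 they are 30 bases around a match that lies after it. Capitals mark matches to AP-1 or C/EBP motifs.
Clec4e (chr6:123289872-123290121, minus strand): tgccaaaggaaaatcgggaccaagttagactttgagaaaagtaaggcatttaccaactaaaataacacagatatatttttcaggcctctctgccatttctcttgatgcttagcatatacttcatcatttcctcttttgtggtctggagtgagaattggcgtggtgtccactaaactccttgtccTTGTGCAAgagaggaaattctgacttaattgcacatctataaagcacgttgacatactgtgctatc
Clec4a2 (chr6:123122710-123122739, plus strand): gtctgtgggagTGACTCAaatgattccatc
Clec7a (chr6:129472780-129473029, minus strand): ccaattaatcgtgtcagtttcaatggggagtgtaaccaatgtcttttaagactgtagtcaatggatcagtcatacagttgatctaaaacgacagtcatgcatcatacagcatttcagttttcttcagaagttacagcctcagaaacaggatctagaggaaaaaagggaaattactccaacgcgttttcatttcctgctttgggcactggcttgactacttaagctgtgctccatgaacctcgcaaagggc
Clec5a (chr6:40585806-40586055, minus strand): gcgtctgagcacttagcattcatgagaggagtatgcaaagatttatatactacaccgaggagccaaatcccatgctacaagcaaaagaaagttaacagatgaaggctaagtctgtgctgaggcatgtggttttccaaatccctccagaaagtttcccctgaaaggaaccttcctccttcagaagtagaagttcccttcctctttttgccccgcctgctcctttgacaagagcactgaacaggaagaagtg
Clec12a (chr6:129349994-129350243, plus strand): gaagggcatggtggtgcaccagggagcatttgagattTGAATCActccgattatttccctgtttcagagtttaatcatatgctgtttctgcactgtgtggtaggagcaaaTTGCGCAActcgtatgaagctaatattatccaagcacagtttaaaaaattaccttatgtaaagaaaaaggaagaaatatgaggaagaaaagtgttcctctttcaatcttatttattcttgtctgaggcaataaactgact

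The motifs were searched on both strands of the whole windows. The AP-1 motif TGANTCA was present in 2 of the 8 windows, in Clec4a2 from base +32 (TGACTCA) and in Clec12a from base -213 (TGAATCA), and in 7.81% of 32851 promoters. The C/EBP motif TTGCNNAA was present in Clec4e from base -66 on the opposite strand (TTGTGCAA on the printed strand) and in Clec12a from base -140 (TTGCGCAA), against 10.8% of promoters. A core of the interferon-stimulated response element, GAAANNGAA, was present in Clec4d from base +2 on the opposite strand (TTCCTTTTC on the gene's strand), against 8.56% of promoters. No match overlapped one of another motif. The Nur77 response element AAAGGTCA was in none of the 8 windows and in 1.51% of promoters, and the NF-kB consensus was in none of the 8 and in 8.46% of promoters. No match says only that these letters are not in this window.

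Library sizes were 8742362 to 15780926 tags (median 11847140). Nr4a1 was lower in the knockout before LPS, with 19.3, 15.4, 25.6 and 18.1 CPM (tags scaled to library size, with TMM factors) in BMDM-WT and 4.43 to 6.98 in BMDM-Nur77-KO (log2 difference -1.90 ± 0.19, adjusted p = 1.5e-08). At 1 h it was 358 to 484 CPM in BMDM-WT and 146 to 242 in BMDM-Nur77-KO (-1.20 ± 0.15, adjusted p = 1.8e-06), so transcript remained in the knockout, and the table does not separate the deleted exons. At 5 and 18 h all libraries held 0 to 9 Nr4a1 tags. Summed macrophage markers, 8 of 8 detected, were 13253 to 18832 CPM in BMDM-WT and 13302 to 15836 in BMDM-Nur77-KO at 0 h, 16318 to 18624 and 14950.5 to 17116 at 1 h, 16540.2 to 17969 and 13263 to 16099.9 at 5 h, and 14020.4 to 14672 and 11037 to 12653 at 18 h. The sums were lower in every knockout library than in every WT library at 5 and 18 h, and the part of this in the genotype differences at those times was not tested. Neutrophil markers summed to 12.0 to 37.1 CPM and B cell markers to at most 4.75 CPM. Dendritic cell markers summed to 1.37 to 27.3 CPM, and mast cell, fibroblast and erythroid markers to at most 1.88 CPM. Of the 5 h knockout libraries replicate 1, of the 18 h knockout libraries replicate 4 and of the 18 h WT libraries replicate 3 stood apart from their groups, and values without them are given beside the results where leaving them out changed a call or moved a genotype difference that was called by over 1.5 times. In replicate 1 of BMDM-Nur77-KO at 5 h, Clec5a was 1.92 times, Clec4e 1.70 times, Clec7a 1.65 times and Clec4a3 1.65 times the mean of the other 3 libraries.

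Per length, the order of the genes changed with LPS. Before LPS the highest mean levels in BMDM-WT were those of Clec12a (237 RPKM, tags scaled to library size and transcript length), Clec4d (202 RPKM) and Clec7a (164 RPKM), and the lowest were those of Clec4n (17.4), Clec10a (11.5) and Clec4e (4.93). After 18 h of LPS, Clec4e had the highest level of the 10 in BMDM-WT, at 477 RPKM, followed by Clec4d at 446 and then by Clec4a1 at 268 and Clec12a at 267 RPKM, which were close. Clec10a then had the lowest, at 0.341 RPKM. These levels depend on the transcript length used. With the longest listed transcript of each gene, Clec5a at 0 h in BMDM-WT would stand at 12.3 RPKM in place of 53.9, Clec4a2 at 26.9 in place of 53.0 and Clec4e at 2.58 in place of 4.93. The length used for Clec4e was 2518 bases and its longest is 4804, while that of Clec4d is 1323 in both cases. With the longest transcripts Clec4e would therefore stand below Clec4d at 18 h in BMDM-WT. All following levels are in CPM, and compare groups within a gene only.

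**Figure D1:**
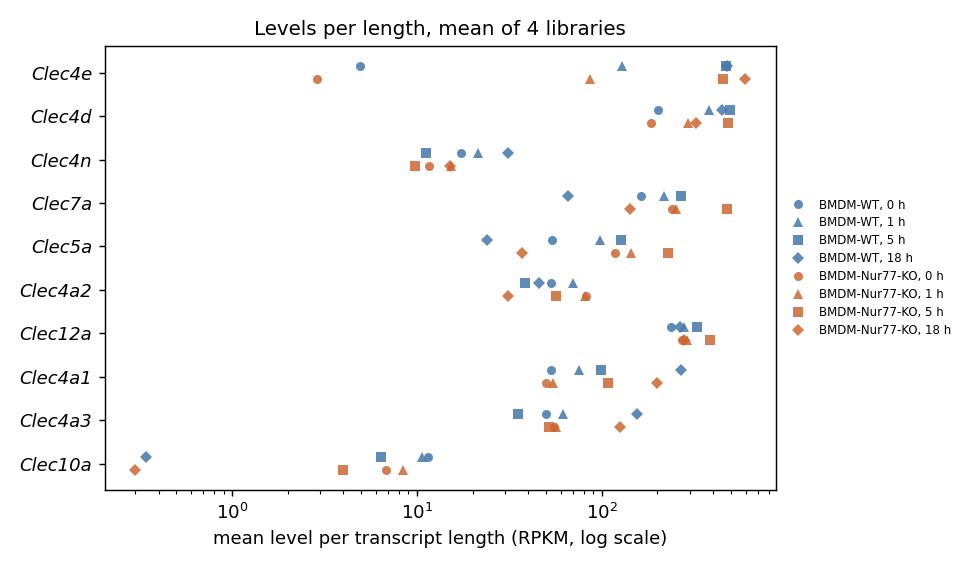
Mean RPKM of each gene (log scale) in the 8 groups, each the mean of 4 libraries, with marker shape for hours of LPS and colour for genotype. In BMDM-WT, Clec4e moves from 4.93 RPKM at 0 h to 477 at 18 h, and Clec10a from 11.5 to 0.341.

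The question for each gene was how its mRNA moved with LPS and whether Nur77 deficiency changed its level or its response. In BMDM-WT, 6 of the 10 genes were called higher and 0 lower at 1 h than at 0 h, where 10.2% of all genes tested were called higher and 10.2% lower. By unadjusted p under 0.05, 8 were higher and 0 lower, and DESeq2 called 8 higher and 0 lower. The call of Clec12a at 1 h was lost when any 1 of the 8 libraries was left out. At 5 h, 6 were higher and 4 lower (30.0% and 40.1% of all genes), and at 18 h, 5 were higher and 3 lower (32.3% and 33.9%). Between 5 and 18 h, 4 rose and 4 fell (35.9% and 33.2%), with the rise of Clec4a2 no longer called without replicate 3 at 18 h (0.19, adjusted p = 0.113). The median log2 change of the 10 genes was 0.40, 0.60 and 0.50 at 1, 5 and 18 h, beside -0.03, -0.14 and -0.01 over all genes tested. A gene was called at an adjusted p under 0.05 (quasi-likelihood test of edgeR, adjusted by Benjamini-Hochberg over the 11272 genes), and differences are log2 values ± SE with 4 libraries a group.

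In BMDM-Nur77-KO, 2 of the 10 were higher and 0 lower at 1 h (6.87% and 5.38% of all genes), with 3 higher and 0 lower both at an unadjusted p under 0.05 and in DESeq2. At 5 h, 6 were higher and 2 lower (32.2% and 39.1%), and at 18 h, 5 were higher and 4 lower (33.7% and 35.5%). Between 5 and 18 h, 4 rose and 6 fell (34.9% and 33.9%). Median log2 changes against 0 h were 0.21, 0.72 and 0.20, beside -0.0015, -0.12 and -0.03 over all genes. The 3 comparisons of each genotype share their 0 h libraries.

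**Figure D2:**
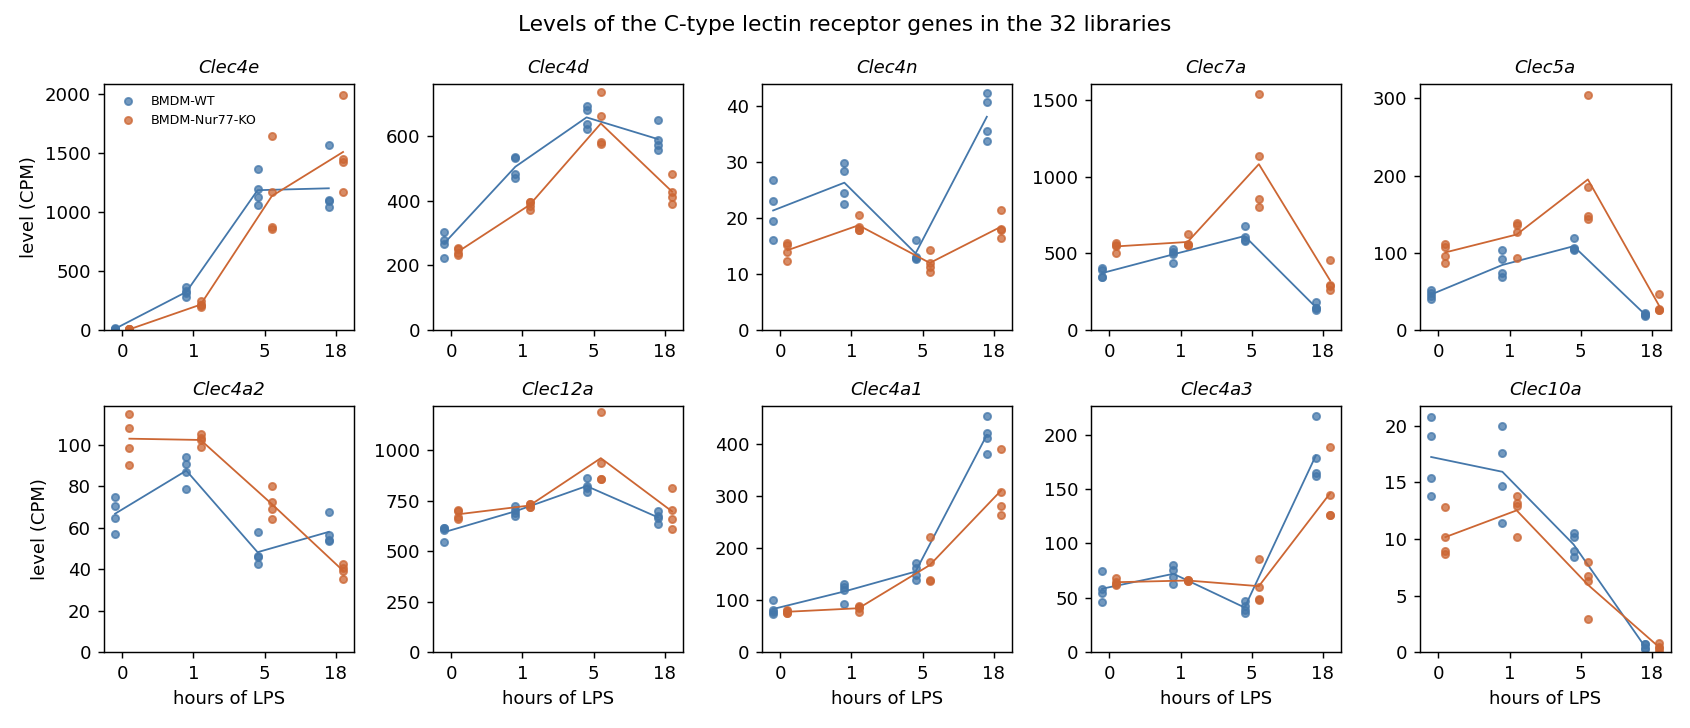
Level of each gene in CPM (linear axis from 0, scaled per gene) against hours of LPS (positions not to scale), with a point per library and a line through group means. Clec4e climbs from a mean of 12.4 CPM at 0 h to 1185 CPM at 5 h in BMDM-WT and from 7.25 to 1136 CPM in BMDM-Nur77-KO, Clec7a and Clec5a peak at 5 h, Clec4a1 and Clec4a3 are highest at 18 h, and Clec10a is near 0 at 18 h.

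Comparing genotypes at each time, the knockout had 3 of the genes higher and 3 lower before LPS, against 6.29% and 6.39% of all genes tested. Higher were Clec5a, Clec4a2 and Clec7a, and lower were Clec4e, Clec10a and Clec4n. At 1 h, 0 were higher and 4 lower (3.47% and 3.04% of all genes), namely Clec4d, Clec4e, Clec4n and Clec4a1. With an unadjusted p under 0.05, 2 were higher at 1 h, and DESeq2 called 0 higher and 4 lower. At 5 h, 5 were higher and 1 lower (13.4% and 10.6%), and at 18 h, 2 were higher and 4 lower (11.7% and 9.8%). The median log2 difference over the 10 genes was 0.02, -0.24, 0.17 and -0.28 at 0, 1, 5 and 18 h, beside -0.03, -0.00082, 0.02 and -0.01 over all genes. At 1 h the count fell to 1 without replicate 1 or without replicate 2 of BMDM-WT, and to 2 without replicate 4 of BMDM-WT or replicate 2 of BMDM-Nur77-KO. At 5 h it fell from 6 to 3 without replicate 1 of BMDM-Nur77-KO. When only the libraries compared were fitted, the 1 h count was 7, with Clec5a, Clec7a and Clec4a2 added as higher, and the 5 h count was 2, Clec7a and Clec4a2. Over all 11272 genes tested, that fit called 873 higher and 866 lower at 1 h, beside 391 and 343 with all libraries fitted. At 5 h it called 231 and 165, beside 1511 and 1198.

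**Figure D3:**
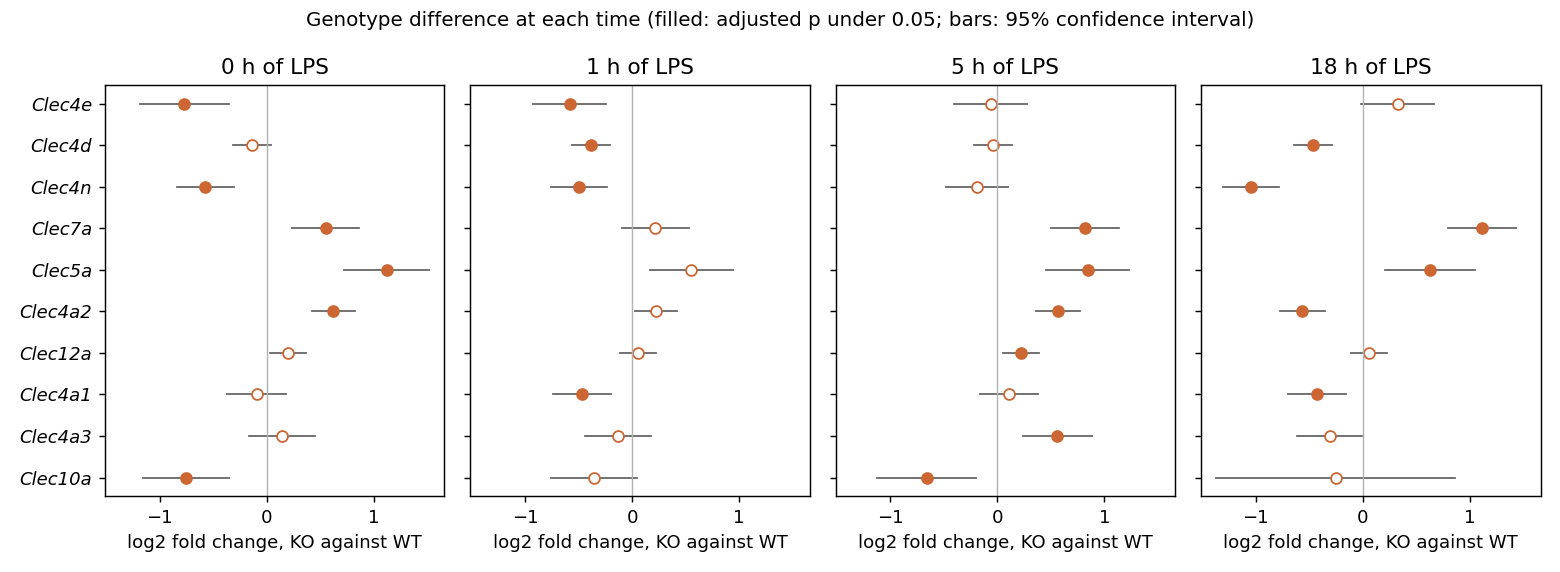
Log2 fold change between BMDM-Nur77-KO and BMDM-WT for each gene at 0, 1, 5 and 18 h of LPS, with 95% confidence intervals, filled where the adjusted p is under 0.05. The points of Clec7a, Clec5a and Clec12a lie to the right of 0 at all 4 times and those of Clec4n, Clec4d and Clec10a to the left. Clec4a2 lies to the right at 0, 1 and 5 h and to the left at 18 h.

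A direct test of whether the LPS response differed between genotypes called 0 of the 10 after 1 h, 0 after 5 h and 2 after 18 h, where 0.071%, 3.11% and 9.39% of all genes tested were called in either direction. At an unadjusted p under 0.05, 2 were lower at 1 h and 1 was higher at 5 h, and DESeq2 called 0 at both times. At 18 h the genes called were Clec4e and Clec4a2, and DESeq2 also called 1 higher and 1 lower. The 18 h count was 4 without replicate 3 of BMDM-WT at 0 h, which added Clec4d and Clec4n, and 7 without the 3 libraries that stood apart, which added Clec4a1, Clec4a3, Clec4d, Clec5a and Clec7a. Without those 3 libraries the 5 h count was 1 (Clec5a, -0.28 with all libraries and -0.58, adjusted p = 0.0386). Over all genes tested, the fit without them called 1035 higher and 722 lower at 18 h, beside 604 and 455 with all libraries. At 5 h it called 374 and 328, beside 195 and 155.

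Clec4e, or Mincle, is the receptor for mycobacterial cord factor and showed the largest LPS response of the 10. Before LPS its level was 11.4, 14.4, 10.3 and 13.5 CPM in BMDM-WT and 6.18, 8.51, 7.49 and 6.82 CPM in BMDM-Nur77-KO. All knockout libraries were below all WT libraries, and the difference was -0.77 ± 0.20, adjusted p = 0.0108, or 1.71-fold lower. At 1 h it was 314, 367, 282 and 334 CPM in BMDM-WT and 196, 212, 214 and 244 in BMDM-Nur77-KO. Again the groups did not overlap (-0.58 ± 0.17, adjusted p = 0.0309), but leaving out any of replicates 1, 2 and 3 of the knockout or 1, 2 and 4 of the WT brought the adjusted p to 0.0574 to 0.108. At 5 h the values were 1196, 1056, 1126 and 1363 CPM in BMDM-WT and 1645, 1167, 856 and 874 in BMDM-Nur77-KO. These overlapped, with the knockout both higher in 1 library and lower in 2, and did not pass the test (-0.06 ± 0.17, adjusted p = 0.809). Without replicate 1 of the knockout the value was -0.30, adjusted p = 0.206. At 18 h they were 1104, 1041, 1569 and 1092 CPM in BMDM-WT and 1421, 1174, 1451 and 1988 in BMDM-Nur77-KO (0.33 ± 0.17, adjusted p = 0.17). Replicate 3 was the high library in BMDM-WT, and without it the 18 h difference passed the test (0.48, adjusted p = 0.0385), whereas without replicate 4 of BMDM-Nur77-KO it was 0.17, adjusted p = 0.578. Without the 3 libraries that stood apart it was 0.32, adjusted p = 0.0366.

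Relative to 0 h, Clec4e rose 26.0-fold, 95.1-fold and 96.4-fold at 1, 5 and 18 h in BMDM-WT (log2 4.70, 6.57 and 6.59). In BMDM-Nur77-KO it rose 29.6-fold, 155-fold and 207-fold. The highest adjusted p of these 6 was 2.8e-18. The response differed between genotypes by 1.10 ± 0.26, adjusted p = 0.00515 at 18 h, a larger change in the knockout. This value is the genotype difference at 18 h less that at 0 h. It was 0.71 ± 0.26, adjusted p = 0.159 at 5 h and 0.19 ± 0.26, adjusted p = 0.753 at 1 h. The 18 h difference remained called without replicate 4 of BMDM-Nur77-KO (0.94, adjusted p = 0.014) and without the 3 libraries that stood apart (1.09, adjusted p = 7.6e-05). Between 5 and 18 h Clec4e changed by 0.41 ± 0.17, adjusted p = 0.0305 in BMDM-Nur77-KO, a call lost without replicate 4 at 18 h (0.25, adjusted p = 0.182) and without replicate 3 or 4 at 5 h, larger without replicate 1 at 5 h (0.64, adjusted p = 3.8e-04), and by 0.02 ± 0.17, adjusted p = 0.925 in BMDM-WT. In the order of group means, the 0 h groups, then the 1 h groups, then the 5 and 18 h groups followed each other, and neighbours did not overlap except among the 4 groups at 5 and 18 h.

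Clec4d, or MCL, the neighbour and partner of Clec4e, varied far less. It went from 278, 223, 303 and 267 CPM at 0 h to 619.9, 636, 679 and 692 CPM at 5 h in BMDM-WT, a 2.45-fold rise (1.30 ± 0.09, adjusted p = 2.8e-14). In BMDM-Nur77-KO it went from 238, 232, 253 and 249.6 to 735, 662, 575 and 579 CPM, a 2.62-fold rise. The genotypes overlapped at both times. At 1 h the libraries held 532, 534, 469 and 483 CPM in BMDM-WT and 396, 385, 369.9 and 396 in BMDM-Nur77-KO, which did not overlap (-0.38 ± 0.09, adjusted p = 0.00369). At 18 h they held 571, 555, 647 and 587 and 426, 411, 391 and 482 CPM, again without overlap (-0.46 ± 0.09, adjusted p = 1.3e-04). Between 5 and 18 h Clec4d fell in BMDM-Nur77-KO (-0.58 ± 0.09, adjusted p = 7.2e-07), and was -0.16 ± 0.09, adjusted p = 0.108 in BMDM-WT, or -0.20, adjusted p = 0.0497 without replicate 3 at 18 h. The difference in response at 18 h was -0.32 ± 0.12, adjusted p = 0.0953, and -0.39, adjusted p = 0.0352 without replicate 4 of BMDM-Nur77-KO.

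Clec4n, or Dectin-2, which binds mannose-rich fungal walls, was a low gene and was lower in the knockout at 3 of 4 times. At 0 h it was 19.4, 16.2, 26.8 and 23.0 CPM in BMDM-WT and 12.4, 15.6, 13.9 and 15.2 in BMDM-Nur77-KO, every knockout library below every WT library (-0.57 ± 0.13, adjusted p = 0.00311). At 18 h it was 33.7, 35.5, 42.4 and 40.7 CPM in BMDM-WT and 21.4, 18.0, 17.9 and 16.5 in BMDM-Nur77-KO, without overlap and 2.06-fold lower in the knockout (-1.05 ± 0.13, adjusted p = 2.2e-07). This was the largest decrease of the 10 genes between genotypes. At 1 h the ranges of 22.5 to 29.8 CPM and 17.9 to 20.6 CPM did not overlap (-0.49 ± 0.13, adjusted p = 0.0144), a call lost without replicate 1 of BMDM-WT (-0.43, adjusted p = 0.0707) or replicate 2. At 5 h the difference was -0.19 ± 0.14, adjusted p = 0.319.

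At 1 h, Clec4n differed from 0 h by 0.31 ± 0.13, adjusted p = 0.0838 in BMDM-WT. In BMDM-Nur77-KO that value was 0.39 ± 0.13, adjusted p = 0.0501, and neither passed the test. In BMDM-WT the gene was below 0 h at 5 h (-0.63 ± 0.14, adjusted p = 1.3e-04) and above it at 18 h (0.84 ± 0.13, adjusted p = 8.1e-07). In BMDM-Nur77-KO the values against 0 h were -0.25 ± 0.14, adjusted p = 0.103 at 5 h and 0.37 ± 0.13, adjusted p = 0.015 at 18 h, the latter lost without replicate 1 at 0 h (0.31, adjusted p = 0.0563) or at 18 h (0.29, adjusted p = 0.0698). The difference in response at 18 h was -0.47 ± 0.18, adjusted p = 0.109, and without replicate 3 of BMDM-WT at 0 h it was -0.60, adjusted p = 0.0291. BMDM-WT at 18 h was the highest group and did not overlap with the next, BMDM-WT at 1 h.

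Clec7a, or Dectin-1, the receptor for fungal beta-glucan, was higher in the knockout at 0, 5 and 18 h. Before LPS the libraries held 390.4, 345, 403 and 349 CPM in BMDM-WT and 569, 550.4, 558 and 505 in BMDM-Nur77-KO, which did not overlap (0.55 ± 0.15, adjusted p = 0.0153). At 5 h they held 606, 582, 587 and 678 and 1535, 1132, 800.2 and 857 CPM, which did not overlap, with replicate 1 of the knockout the highest (0.82 ± 0.15, adjusted p = 3.4e-04). Without that library the difference was 0.60, adjusted p = 0.00244. At 18 h they held 143, 143, 184 and 129 CPM in BMDM-WT and 293, 259, 289 and 454 in BMDM-Nur77-KO. Here too each knockout library was above each WT library, and the level was 2.16-fold higher (1.11 ± 0.16, adjusted p = 2.3e-06). Without replicate 4 of BMDM-Nur77-KO it was 0.91, adjusted p = 1.4e-05. At 1 h the ranges of 438 to 531 CPM in BMDM-WT and 553 to 629 CPM in BMDM-Nur77-KO also did not overlap, but the difference did not pass the test (0.22 ± 0.15, adjusted p = 0.537).

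With LPS, Clec7a rose at 5 h and fell below its starting level at 18 h in both genotypes. In BMDM-WT the changes were 0.72 ± 0.15, adjusted p = 1.3e-04 at 5 h and -1.31 ± 0.16, adjusted p = 1.2e-08 at 18 h, and the drop between 5 and 18 h was 4.10-fold. In BMDM-Nur77-KO they were 0.99 ± 0.15, adjusted p = 1.5e-06 and -0.75 ± 0.15, adjusted p = 7.4e-05, with a drop of 3.34-fold. The difference in response at 18 h was 0.56 ± 0.22, adjusted p = 0.11, and 0.47, adjusted p = 0.0113 without the 3 libraries that stood apart.

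Clec5a, or MDL-1, a Tyrobp-coupled receptor, had the time course most like that of Clec7a among the 10 (Pearson r = 0.96 over the 8 group means of log2 CPM). Before LPS it was 40.2, 52.3, 44.2 and 48.3 CPM in BMDM-WT and 86.8, 108, 112 and 95.9 in BMDM-Nur77-KO, without overlap and 2.18-fold higher in the knockout (1.12 ± 0.19, adjusted p = 1.3e-04). At 1 h it was 68.6, 74.4, 91.6 and 103 CPM and 93.0, 127, 139 and 136 CPM, which overlapped, and the difference did not pass the test (0.55 ± 0.19, adjusted p = 0.0825). It passed without replicate 1 of BMDM-Nur77-KO, the lowest of its group (0.67, adjusted p = 0.041), and when only the 1 h libraries were fitted (0.56, adjusted p = 0.00809). At 5 h it was 103, 106, 106 and 119.6 CPM and 305, 185, 143 and 148 CPM, without overlap (0.84 ± 0.19, adjusted p = 0.00225). Without replicate 1 of BMDM-Nur77-KO this difference was 0.55, adjusted p = 0.0204. The 5 h call was lost when only the 5 h libraries were fitted. At 18 h it was 18.3, 20.0, 22.6 and 21.4 CPM in BMDM-WT and 27.7, 26.1, 25.8 and 47.4 in BMDM-Nur77-KO. The groups did not overlap (0.63 ± 0.21, adjusted p = 0.0265), yet the call was lost without replicate 4 of the knockout (0.37, adjusted p = 0.227) and without replicate 1 or 2 of BMDM-WT.

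In BMDM-WT, Clec5a rose at 1 h (0.87 ± 0.19, adjusted p = 0.00119) and 5 h (1.23 ± 0.19, adjusted p = 1.7e-06) and was lower at 18 h than at 0 h (-1.17 ± 0.20, adjusted p = 8.3e-06). In BMDM-Nur77-KO the 1 h value was 0.30 ± 0.19, adjusted p = 0.453, and the gene rose at 5 h (0.95 ± 0.19, adjusted p = 5.4e-05) and was lower at 18 h (-1.67 ± 0.20, adjusted p = 1.0e-08). The difference in response at 18 h was -0.49 ± 0.28, adjusted p = 0.334, and -0.70, adjusted p = 0.0137 without the 3 libraries that stood apart. From 5 to 18 h it fell 5.29-fold in BMDM-WT and 6.14-fold in BMDM-Nur77-KO. For both Clec7a and Clec5a the lowest group was BMDM-WT at 18 h and the highest was BMDM-Nur77-KO at 5 h, and neither overlapped with its neighbour in the order.

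Clec4a2, or DCIR1, an inhibitory receptor, changed sides between genotypes with time. At 0 h it was 64.8, 57.1, 70.5 and 75.1 CPM in BMDM-WT and 115, 90.4, 108 and 98.7 in BMDM-Nur77-KO, where every knockout library was higher (0.62 ± 0.10, adjusted p = 3.8e-05). At 5 h it was 42.7, 46.5, 45.8 and 58.0 CPM and 80.1, 64.3, 69.2 and 72.5 CPM, again higher in every knockout library (0.57 ± 0.10, adjusted p = 1.9e-04). At 18 h it was 56.6, 54.4, 67.6 and 53.7 CPM in BMDM-WT and 42.4, 39.1, 35.3 and 40.7 in BMDM-Nur77-KO, where every knockout library was lower (-0.56 ± 0.10, adjusted p = 8.6e-05). At 1 h the ranges were 78.6 to 94.0 and 98.9 to 105 CPM and did not overlap, but the difference did not pass the test (0.22 ± 0.10, adjusted p = 0.213).

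Within BMDM-WT, Clec4a2 rose at 1 h (0.39 ± 0.10, adjusted p = 0.00383), fell at 5 h (-0.47 ± 0.10, adjusted p = 1.4e-04) and was not called at 18 h against 0 h (-0.20 ± 0.10, adjusted p = 0.0739), though it was without replicate 3 at 18 h (-0.28, adjusted p = 0.0173). In BMDM-Nur77-KO it was -0.01 ± 0.10, adjusted p = 0.987 at 1 h and fell at 5 h (-0.53 ± 0.10, adjusted p = 2.3e-05) and further at 18 h (-1.39 ± 0.10, adjusted p = 1.8e-13), where it stood 2.62-fold below 0 h. The response at 18 h differed by -1.19 ± 0.14, adjusted p = 7.0e-07, the lowest adjusted p of the 10 genes in that test. It was -1.12, adjusted p = 3.1e-07 without the 3 libraries that stood apart. At 5 h the difference in response was -0.06 ± 0.14, adjusted p = 0.897, with a 95% interval of -0.35 to 0.23. Of the distinct 75-base stretches of the Clec4a2 transcript, 8.17% were also found in transcripts of other genes, among them Clec4a4 and Clec4b1, so reads from those stretches may have been shared.

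**Figure D4:**
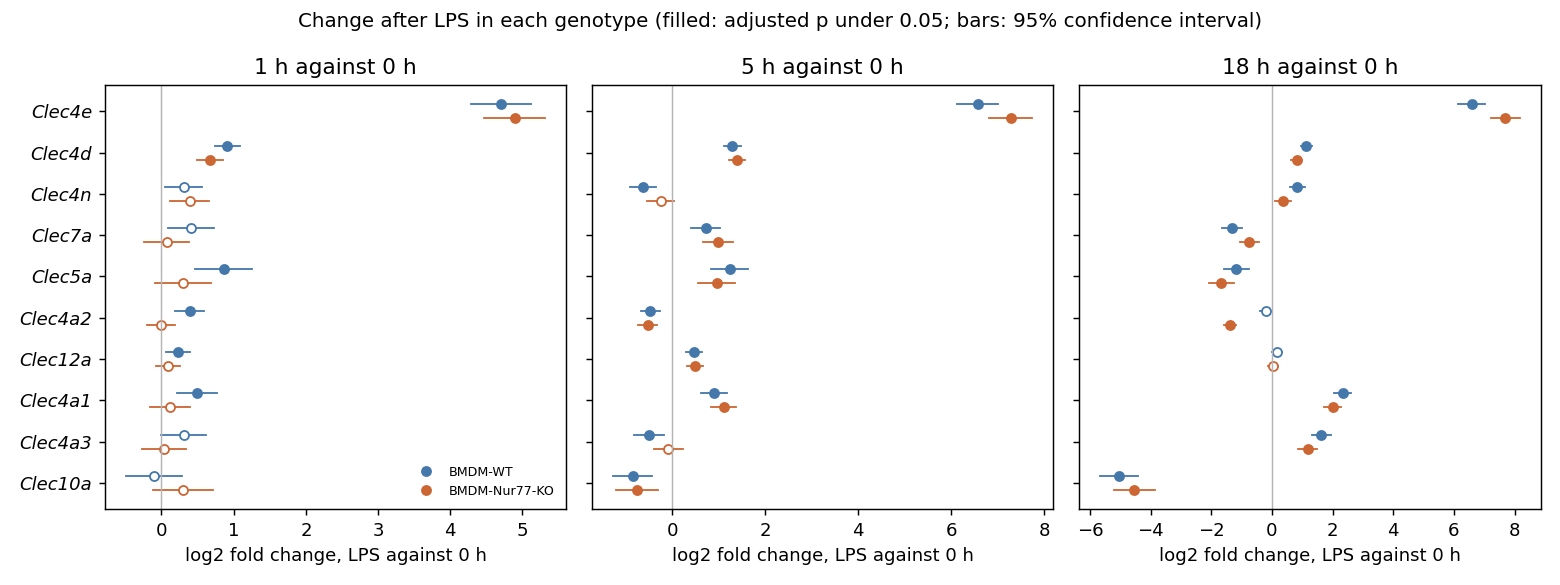
Log2 fold change against 0 h for each gene at 1, 5 and 18 h of LPS in BMDM-WT and BMDM-Nur77-KO, with 95% confidence intervals, filled where the adjusted p is under 0.05 (horizontal axes differ between panels). At 18 h the intervals of the genotypes lie apart for Clec4e and Clec4a2, and Clec4a2 is at -0.20 in BMDM-WT and -1.39 in BMDM-Nur77-KO.

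Clec12a, the other inhibitory receptor, which recognises uric acid crystals, was the steadiest of the 10, with its highest group mean only 1.62 times its lowest. It was 546 to 613 CPM at 0 h and 823, 811, 793 and 862 CPM at 5 h in BMDM-WT (0.47 ± 0.08, adjusted p = 9.3e-06), and 660.4 to 705 CPM at 0 h and 1188, 939, 858 and 856 CPM at 5 h in BMDM-Nur77-KO (0.49 ± 0.08, adjusted p = 4.5e-06). At 18 h it differed from 0 h by 0.17 ± 0.08, adjusted p = 0.0721 in BMDM-WT (0.15, adjusted p = 0.0215 without the 3 libraries that stood apart) and 0.03 ± 0.08, adjusted p = 0.763 in BMDM-Nur77-KO. The genotypes differed only at 5 h among the 4 times by the test (0.22 ± 0.08, adjusted p = 0.0472), and without replicate 1 of the knockout that value was 0.11, adjusted p = 0.36. Leaving out any other library at 5 h except replicates 3 and 4 of BMDM-Nur77-KO also ended the call. At 0 h the libraries did not overlap, but the difference did not pass the test (0.20 ± 0.08, adjusted p = 0.111). When only the libraries compared were fitted, the gene was called at 0 h (0.23, adjusted p = 0.0184) and not at 5 h (0.22, adjusted p = 0.267).

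Clec4a1 and Clec4a3, of the DCIR family like Clec4a2, were highest at 18 h. Clec4a1 went from 82.1, 72.8, 100.5 and 77.4 CPM at 0 h to 412, 422, 455 and 382 CPM at 18 h in BMDM-WT (2.33 ± 0.14, adjusted p = 1.7e-15), a 5.03-fold rise. In BMDM-Nur77-KO it went from 77.9 ± 3.50 CPM (SD, n = 4) to 308, 281, 263 and 392 CPM (2.00 ± 0.14, adjusted p = 4.4e-14), a 3.99-fold rise. At 18 h replicate 4 of the knockout lay within the WT range and the other 3 knockout libraries lay below it (-0.43 ± 0.13, adjusted p = 0.0182). The difference in response at 18 h was -0.33 ± 0.19, adjusted p = 0.33, and -0.42, adjusted p = 0.0481 without the 3 libraries that stood apart. The call between genotypes at 18 h was lost without replicate 2 (-0.38, adjusted p = 0.0562) or replicate 3 of BMDM-Nur77-KO (-0.35, adjusted p = 0.0772). At 1 h Clec4a1 rose in BMDM-WT (0.49 ± 0.13, adjusted p = 0.00754) and was 0.12 ± 0.13, adjusted p = 0.76 in BMDM-Nur77-KO, and it was lower in the knockout (-0.47 ± 0.13, adjusted p = 0.0297), a call lost when any of 6 of the 8 libraries was left out (adjusted p of 0.0593 to 0.111).

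Clec4a3 was 57.9, 46.1, 74.8 and 54.9 CPM at 0 h, 36.5, 38.5, 42.3 and 47.3 CPM at 5 h and 179, 165, 218 and 162 CPM at 18 h in BMDM-WT. It fell at 5 h (-0.50 ± 0.16, adjusted p = 0.00525) and rose to 3.10-fold of its starting level at 18 h (1.63 ± 0.15, adjusted p = 9.0e-11). In BMDM-Nur77-KO it was 64.9, 61.7, 62.5 and 68.6 CPM at 0 h, 86.2, 59.9, 48.3 and 48.6 CPM at 5 h and 144, 126, 126 and 189 CPM at 18 h, with a rise of 1.18 ± 0.15, adjusted p = 4.7e-08 at 18 h. At 5 h the change from 0 h in the knockout was -0.09 ± 0.15, adjusted p = 0.628, but replicate 1 was the highest library, and the change was -0.30, adjusted p = 0.057 without it and -0.30, adjusted p = 0.0174 without the 3 libraries that stood apart, a call gained. The response at 5 h did not pass the test of a difference between genotypes (0.42 ± 0.22, adjusted p = 0.374). All knockout libraries were above the WT libraries at 5 h (0.56 ± 0.16, adjusted p = 0.0116), but without replicate 1 of the knockout the call was lost (0.35, adjusted p = 0.111). Without the 3 libraries that stood apart it was kept (0.35, adjusted p = 0.0316). The call was also lost when only the 5 h libraries were fitted (0.55, adjusted p = 0.127). At 18 h the genotypes overlapped and the difference of -0.31 ± 0.15, adjusted p = 0.149 did not pass the test, whereas it did without replicate 4 of BMDM-Nur77-KO (-0.45, adjusted p = 0.0312). The difference in response at 18 h was -0.45 ± 0.21, adjusted p = 0.218, and -0.50, adjusted p = 0.0204 without the 3 libraries that stood apart.

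Clec10a, or MGL1, a galactose-binding endocytic receptor known as a marker of alternatively activated macrophages, was nearly lost after LPS. At 0 h it was 19.1, 13.8, 20.7 and 15.3 CPM in BMDM-WT and 8.90, 10.2, 8.72 and 12.9 in BMDM-Nur77-KO. The groups did not overlap (-0.75 ± 0.20, adjusted p = 0.0101), with 1.69-fold less in the knockout, and without replicate 3 of BMDM-WT the value was -0.65, adjusted p = 0.0504. At 5 h it was 8.41, 10.5, 10.2 and 8.96 CPM and 2.94, 6.69, 7.94 and 6.27 CPM, all knockout libraries being lower (-0.66 ± 0.23, adjusted p = 0.0345). Replicate 1 of the knockout was the lowest of these, and without it the value was -0.45, adjusted p = 0.158. The call was also lost without replicate 2 or 3 of BMDM-WT at 5 h, and when only the 5 h libraries were fitted (-0.67, adjusted p = 0.18). At 18 h each library held only 2 to 9 tags, 0.274 to 0.694 CPM in BMDM-WT and 0.14 to 0.8 in BMDM-Nur77-KO, and a genotype difference was not detectable at this depth (95% interval -1.37 to 0.86). Against 0 h this was a fall of 32.7-fold in BMDM-WT (-5.03 ± 0.31, adjusted p = 3.6e-15) and 23.1-fold in BMDM-Nur77-KO (-4.53 ± 0.33, adjusted p = 1.4e-13). Of the distinct 75-base stretches of the Clec10a transcript, 10.2% also occur in transcripts of its neighbour Mgl2. For the 8 genes other than Clec4a2 and Clec10a, no such stretch was shared with another gene.

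Among the genes most like each member over the 8 group means of log2 CPM, a likeness dominated by the LPS time course and given with no test, were Itga5 (r = 0.99) and Gm16712 (r = 0.99) for Clec4e, and Ampd3 (r = 0.99) and Orai2 (r = 0.98) for Clec4d. They were Sirpb1c (r = 0.97) and Osbpl1a (r = 0.94) for Clec4n, Ccdc122 (r = 0.98) and Smarca5 (r = 0.98) for Clec7a, and P2ry10b (r = 0.99) for Clec5a. For Clec4a2 they were Grk5 (r = 0.98) and Slc35a1 (r = 0.97), for Clec12a Nck1 (r = 0.99) and Ammecr1 (r = 0.98), for Clec4a1 C1rl (r = 0.99) and Fyb (r = 0.98), and for Clec4a3 2810002D19Rik (r = 0.99) and Akr1e1 (r = 0.99). For Clec10a they were Iqgap3 (r = 1.00) and Ube2c (r = 1.00), which are known as genes of dividing cells. Among the members themselves Clec7a and Clec5a (r = 0.96) and Clec4d and Clec4e (r = 0.92) were most alike, and Clec4a1 and Clec10a were most opposed (r = -0.93).

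Of 17 genes through which these receptors signal, all tested, the knockout had 3 higher and 3 lower at 18 h, where 11.7% and 9.8% of all genes tested were called higher and lower. The median log2 difference of the 17 at 18 h was 0.06, beside -0.01 over all genes tested. At 0 h, 1 was higher and 2 lower (6.29% and 6.39% of all genes). At 1 h, 1 was higher and 3 lower (3.47% and 3.04%), and at 5 h, 1 was higher and 5 lower (13.4% and 10.6%). Fcer1g, the adaptor of Clec4e, Clec4d and Clec4n, was lower in the knockout at every time. It was 447, 526, 493 and 511 CPM in BMDM-WT and 253, 295, 267 and 278 in BMDM-Nur77-KO at 0 h (-0.86 ± 0.07, adjusted p = 4.9e-10), and 1053, 1057, 914 and 1035 and 611, 589, 685 and 610.4 CPM at 18 h (-0.70 ± 0.07, adjusted p = 6.0e-09). The groups overlapped at neither time, and the differences at 1 and 5 h were -0.71 ± 0.07, adjusted p = 2.3e-08 and -0.74 ± 0.07, adjusted p = 6.9e-09. Malt1, the protease of the Card9 complex, was higher in the knockout at every time, by 0.81 ± 0.14, adjusted p = 1.4e-04 at 0 h and 1.25 ± 0.14, adjusted p = 4.4e-08 at 18 h. Also higher at 18 h were the phosphatase Ptpn6 (0.25 ± 0.07, adjusted p = 0.0101) and the ubiquitin ligase Traf6 (0.23 ± 0.06, adjusted p = 0.00606), and also lower were the lipid phosphatase Inpp5d (-0.48 ± 0.12, adjusted p = 0.0023) and the phospholipase Plcg2 (-0.33 ± 0.07, adjusted p = 3.1e-04). Ptpn6 was lower in the knockout at 0 h (-0.22 ± 0.07, adjusted p = 0.0408), and its response at 18 h differed (0.48 ± 0.10, adjusted p = 0.00178). The kinase Syk differed by 0.24 ± 0.09, adjusted p = 0.0514, Card9 by -0.10 ± 0.13, adjusted p = 0.635 and Tyrobp by -0.33 ± 0.16, adjusted p = 0.137 at 18 h, and these did not pass the test.

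With 18 h of LPS in BMDM-WT, 11 of these 17 genes rose and 3 fell, beside 32.3% and 33.9% of all genes tested. The largest rise was that of the exchange factor Vav1 (1.59 ± 0.09, adjusted p = 1.8e-15), and the largest falls were those of Vav3 (-1.41 ± 0.11, adjusted p = 7.8e-13) and the Clec5a adaptor Tyrobp (-0.73 ± 0.16, adjusted p = 1.6e-04). In BMDM-Nur77-KO, 10 rose and 2 fell, beside 33.7% and 35.5% of all genes. The median log2 change over the 17 was 0.45 in BMDM-WT and 0.41 in BMDM-Nur77-KO, beside -0.01 and -0.03 over all genes tested.

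Of 20 other C-type lectin receptor genes, 11 were expressed enough to be tested, and at 18 h the knockout had 5 of these called higher and the other 6 not called, beside 11.7% called higher and 9.8% called lower among all genes tested. The median log2 difference of the 11 was -0.03, beside -0.01 over all genes. Called higher were the activation marker Cd69 (231, 270.2, 317 and 232 CPM against 585, 542, 633 and 796 CPM, 1.28 ± 0.13, adjusted p = 3.7e-09), Clec9a (1.79 ± 0.21, adjusted p = 8.1e-08), Klrk1 (1.56 ± 0.16, adjusted p = 1.0e-08), Ly75 (0.96 ± 0.19, adjusted p = 3.1e-04) and Olr1 (1.70 ± 0.23, adjusted p = 1.1e-06). Clec9a, Klrk1, Ly75 and Olr1 were low genes, with means of 12.1, 26.4, 20.7 and 5.93 CPM in the knockout at 18 h. Clec9a is also 1 of the 7 dendritic cell markers. Their sum at 18 h, which includes Clec9a itself, was 19.0 to 24.0 CPM in BMDM-Nur77-KO and 6.72 to 8.25 CPM in BMDM-WT. Of the other markers, Flt3, Zbtb46, Siglech and Cd209a reached at most 1.13 CPM in any library, Ccr7 5.51 and Xcr1 21.1. Whether the cultures differed in dendritic cells was not tested. The response of Cd69 (1.83 ± 0.28, adjusted p = 3.5e-05) and Clec9a (2.32 ± 0.55, adjusted p = 0.00442) differed between genotypes at 18 h. In BMDM-WT at 18 h against 0 h, 8 of the 11 rose and 3 fell, beside 32.3% and 33.9% of all genes tested, with a median log2 change of 1.69 beside -0.01. The largest rises were those of Cd69 (7.28 ± 0.18, adjusted p = 9.0e-25) and Klrk1 (5.30 ± 0.29, adjusted p = 3.4e-16), and the largest falls those of the mannose receptor Mrc1, from 1021 to 1192 to 53.5 to 74.4 CPM (-4.17 ± 0.14, adjusted p = 7.9e-22), and Clec4b1 (-3.42 ± 0.28, adjusted p = 5.4e-12). Mrc1, like Clec10a a marker of alternative activation, did not pass the genotype test at 18 h (-0.18 ± 0.12, adjusted p = 0.325).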

How the data were processed

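RNA-seq of 32 BMDM libraries was analysed, 4 for each genotype and time, grouped by the titles and conditions of the sample labels. The authors deposited 1 table of expected counts, without normalization, for 42361 transcripts. They prepared strand-specific mRNA libraries, aligned paired-end reads with HISAT2 (2.1.0) to mm10, filtered on mapping quality and used HOMER to count tags per RefSeq transcript. The submitters' processing notes also name CASAVA 1.8.2. All values are multiples of 0.5 (100.0%), and 28.6% are not whole, so they were rounded. Whether tags were counted by strand is not given in the sources used here.

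Transcripts were named through RefSeq (42203) and GENCODE (65). The 93 unnamed ones, 0.233 to 1.37% of tags, were left out. The transcript with the highest mean count represented each of 25067 genes. Genes whose mean RPKM exceeded 1 in any group (11272) entered the test in edgeR 4.0.16 in R 4.3.3 (TMM, quasi-likelihood, 1 mean per group, all 32 libraries sharing an estimate of the spread), with Benjamini-Hochberg adjustment. A log2 fold change in edgeR includes a small prior count. CPM and RPKM have an SD of 4 libraries. The alternatives were DESeq2 1.42.0 (test and size factors), other filters, summed transcripts, only the libraries compared, replicate blocks, fold limits and leaving out each library. The scripts were tested on simulated data. With totals of 8742362 to 15780926 tags, 1 tag is a small part of each level except for Clec10a at 18 h.

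The members and lists were chosen with earlier results of these data known. Genes named beside the members are Nr4a1, the 2 genes most like each member, and, in the signalling and other lectin lists, those called between genotypes at 18 h and the 2 with the largest changes each way at 18 h in BMDM-WT. Of the genes this rule names, 2 are not reported here. Syk and Card9 of the signalling list were named for their role after their values were seen. The planned search of protein motifs was not run, as proteins were not used here.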

Additional observations from a re-analysis of the deposited data

Results flagged for a closer look

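Among the 80 combinations of gene and group, 5 held a library far from the other 3 of its group by Dixon's test, which chance gives for about 1 in 20 groups. These were Clec4e at 1569 CPM in replicate 3 of BMDM-WT at 18 h, Clec4n at 16.2 CPM in replicate 3 of BMDM-WT at 5 h, and Clec7a at 629 CPM in the 1 h knockout replicate 3. The others were Clec5a at 47.4 CPM in the 18 h knockout replicate 4 and, as the only low one of the 5, Clec12a at 546 CPM in replicate 2 of BMDM-WT at 0 h. The Clec4e and Clec5a values lie in 2 of the 3 libraries that stood apart from their groups over all genes.

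The response to 18 h of LPS differed between genotypes, by the test of the difference itself, for Clec4a2 (log2 difference -1.19, edgeR adjusted p = 7.0e-07) and for Clec4e (1.10, adjusted p = 0.00515). Both remained called without any 1 library and without the 3 libraries that stood apart.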

How the results depend on the processing

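Of 2610 values of single genes under alternatives, 2501 kept their side of the threshold, 66 lost the call and 43 gained it. Values called in neither fit could change sign. Clec4a1 between genotypes at 5 h was 0.11, and -0.05 without replicate 1 of BMDM-Nur77-KO. None that was called in either fit changed its sign. Of 291 counts of called genes, 268 stayed within 1.5 times the reported count. With a log2 change over 1 required, the counts were 1, 0, 0 and 2 between genotypes at 0, 1, 5 and 18 h. They were then 1 and 3 in BMDM-WT at 1 and 5 h, 1 and 3 in BMDM-Nur77-KO at 1 and 5 h, and 4 in BMDM-Nur77-KO from 5 to 18 h. With a log2 change over 0.58 required, they were 1, 3 and 3 between genotypes at 1, 5 and 18 h and 3 in BMDM-WT at 1 h. Fitting only the libraries compared gave 7 at 1 h and 2 at 5 h between genotypes. Over all genes tested, that fit also called more at 1 h and fewer at 5 h. Leaving out each library in turn gave 1 to 4 at 1 h and 3 to 6 at 5 h between genotypes, and 2 to 4 for the difference in response at 18 h. Without the 3 libraries that stood apart, an alternative chosen after seeing the data, the difference in response counted 1 gene at 5 h and 7 at 18 h. The calls over all genes tested also rose at both times in that fit. The cause of these changes was not tested. DESeq2 size factors moved the median of all genes by at most 0.087. No pairing by replicate number was seen. Deviations of same-numbered libraries correlated between -0.70 and 0.46, and those of differently numbered libraries between -0.66 and 0.77. Whether a number stands for 1 mouse or 1 culture cannot be told from these values. With a replicate block the genotype counts were 6, 4, 5 and 6 at 0, 1, 5 and 18 h (Clec12a lost at 5 h), and blocks within genotype also lost Clec12a in BMDM-WT at 1 h and Clec4e in BMDM-Nur77-KO from 5 to 18 h.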
